A study of Mus musculus with 11 samples.

Results

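miR-221 and miR-222 are a pair of microRNAs (miRNAs) that come from neighbouring hairpins on the X chromosome. Every row of the deposited miRNA table for either hairpin was taken, whichever arm it came from, which gave 3 of the 592 listed mature miRNAs: miR-221-3p, miR-221-5p and miR-222-3p. A miRNA hairpin is cut into a 5p and a 3p arm, and the arm that is kept in an Argonaute protein pairs through bases 2 to 8, its seed, with messenger RNAs and represses them. The 3p arms of miR-221 and miR-222 are known for repressing the cell cycle inhibitors Cdkn1b (p27Kip1) and Cdkn1c (p57Kip2) and the receptor Kit, and both miRNAs are abundant in endothelium, fibroblasts and many tumours. Mouse embryonic stem (mES) cells, which divide fast with a short G1 phase, depend for this mainly on the miRNAs of the miR-290 and miR-302 clusters.

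The libraries came from C57BL/6 male mES cells that carry a conditional allele of Trim71, a gene for an RNA-binding protein of the Trim family. Trim71fl/fl cells (Trimfl/fl in the labels) keep the floxed allele, and Trim71-/- cells (Trim-/-) were derived from them with 4-hydroxytamoxifen (4-OHT), which activates a Cre recombinase carried by the cells. The labels give 500 nM 4-OHT for 2 days and at least 7 further days of culture, whereas the methods of the study give a lower dose, with the solvent for Trim71fl/fl cells, and a shorter later culture. For the libraries the labels name a kit for messenger RNA and paired-end reads, whereas the methods describe a small RNA kit. All cells grew in serum with LIF, a cytokine that holds mES cells undifferentiated, and were sorted magnetically for the stem cell antigen SSEA-1. The 11 libraries stem from 2 clones. On days 1, 5 and 6 there was 1 library of each genotype from clone 1, on days 3 and 4 there was 1 of each from clone E3, and day 2 had a single Trim71fl/fl library of clone E3. Nothing in the labels says that the days are separate derivations, so that the p-values measure the spread between days of 2 clones. Trim71 itself is not a miRNA, and its deletion could not be checked in this table.

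The positions and sequences of both hairpins are given in RefSeq for GRCm38.p6, the assembly that mm10 names. Both lie on the minus strand of the X chromosome, Mir221 at chrX:19146294-19146388 (95 bases) and Mir222 at chrX:19146893-19146971 (79 bases), with 504 bases between them. GENCODE M21 places no other gene over either hairpin, and the nearest annotated gene on the minus strand, the processed transcript Gm14636 at chrX:19156981-19167241, has its near end, which is its 3′ end, 10009 bases away. The hairpins are printed 5′ to 3′ to show where the measured arms lie, with the mature miRNAs that were listed in the table in capitals.
Mir221: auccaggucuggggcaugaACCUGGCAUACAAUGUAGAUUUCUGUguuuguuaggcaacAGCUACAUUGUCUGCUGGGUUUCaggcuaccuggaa
Mir222: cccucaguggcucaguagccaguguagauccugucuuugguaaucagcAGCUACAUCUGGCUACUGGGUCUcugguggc
In Mir221 the 5p arm takes bases 20 to 45 and the 3p arm bases 60 to 82, and in Mir222 the 3p arm takes bases 49 to 71. The 5p arm of miR-222 was not analysed here.

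The mature sequences are shown with the seed in capitals, because the seed decides which of the 3 belong to 1 family.
miR-221-3p: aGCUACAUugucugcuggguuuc
miR-222-3p: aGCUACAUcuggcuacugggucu
miR-221-5p: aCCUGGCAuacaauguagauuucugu
miR-221-3p and miR-222-3p share the seed GCUACAU and are identical over their first 8 bases. Compared base by base without gaps, 11 of their 23 bases were identical, and the 12 differences, counted from the 5′ end of miR-221-3p, were U9C, G10U, U11G, C12G, U13C, G14U, C15A, U16C, G17U, U20G, U22C and C23U. The differences all lie outside the seed, in bases that a sequencing read of the whole miRNA covers. miR-221-5p carries another seed, CCUGGCA, which no other mature miRNA of the RefSeq table has. The seed of the 3p arms is also found in miR-1928, which was not analysed here. The seeds of 463 of the 592 listed miRNAs could be read from RefSeq, so that further listed miRNAs with either seed cannot be told.

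The levels of miR-221 and miR-222 in mES cells lay below the median of the listed miRNAs. The values are normalized read counts after the authors' batch correction, and over the 10 paired libraries the mean value was 106 for miR-221-3p, 48.0 for miR-221-5p and 9.10 for miR-222-3p. This put miR-221-3p at rank 325 of 592, miR-221-5p at rank 411 and miR-222-3p at rank 583, beside a median of 142 over all miRNAs. Per base of mature sequence the order of the levels was the same, at 4.60, 1.85 and 0.396. In the 10 paired libraries miR-222-3p was below miR-221-5p in 10 and below miR-221-3p in 10, and miR-221-3p was above miR-221-5p in 9. Within the Trim71fl/fl group, miR-221-3p had a value of 106 ± 56.7 (SD, n = 5), miR-221-5p of 40.6 ± 11.95 and miR-222-3p of 7.80 ± 3.05. Those levels of miR-221-3p and miR-221-5p are separated by little more than the SD of miR-221-3p, while miR-222-3p lay below the other two by more than their SDs. The authors kept a miRNA where its larger group mean was at least 10, and miR-222-3p, with 10.4 in Trim71-/- and 7.80 in Trim71fl/fl cells, passed through the genotype in which it was higher. The other two passed in both genotypes.

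**Figure D1:**
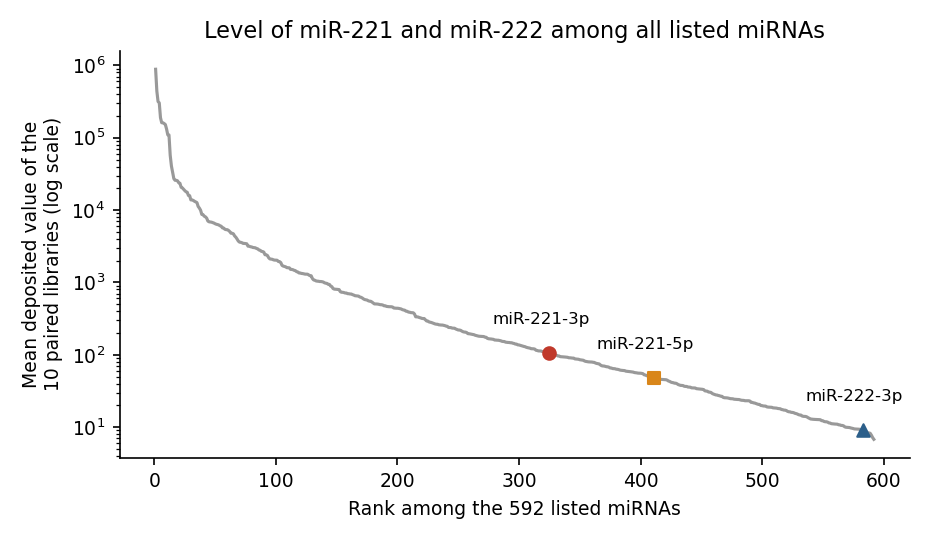
Mean deposited value of the 10 paired libraries (log axis) against rank, for the 592 listed miRNAs (grey line), with the 3 mature miRNAs of miR-221 and miR-222 marked. miR-221-3p sits near the middle of the ranking, at 325, and miR-222-3p near its end, at 583.

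The labelled cell type was checked with 10 miRNA markers of embryonic stem cells. All 10 were listed, and together they held between 23.6% and 39.2% of the summed value of each paired library. Markers of cell types in which miR-221 and miR-222 are abundant were detected too. The 5 listed of 6 fibroblast markers, led by miR-143-3p, summed to between 13457.5 and 35407 in Trim71-/- and between 13268 and 35237 in Trim71fl/fl libraries, and the 2 endothelium markers, miR-126a-3p and miR-126a-5p, to between 4766 and 6307 and between 4584 and 6125. The fibroblast sums were nearly all miR-143-3p, with means of 26198 in Trim71-/- and 21522 in Trim71fl/fl cells. Next came miR-145a-5p, with 260 and 245. Lower still were miR-199a-3p (87.1 and 86.3), miR-199a-5p (72.3 and 78.6) and miR-199b-5p (70.5 and 58.1). The 5 listed of 6 blood markers summed to between 1151 and 2864 and between 2322 and 4079, with miR-451a, the defining erythroid miRNA, at a mean of 7.04 and 12.8, and the 4 listed of 6 neural markers to between 5577 and 8969 and between 3216 and 6608. On day 5, where miR-221-3p was far lower in the Trim71-/- library, the fibroblast markers summed to 35407 in that library and 13268 in its partner, the endothelium markers to 6047 and 4844, the blood markers to 1205 and 3981, and the neural markers to 8969 and 3216. The embryonic stem cell markers summed to 1310100.3 and 1075702.9, with shares of 23.6% and 39.2%. Sums and medians over a list could differ in direction, since a sum follows the most abundant marker. The median same-day log2 difference of day 5 was -0.13 for the fibroblast, 0.020 for the endothelium, -1.35 for the blood, 0.38 for the neural and -0.32 for the embryonic stem cell markers. On day 4, where miR-221-3p was higher in the Trim71-/- library, the fibroblast markers summed to 13457.5 in that library and 35237 in its partner, with a median difference of 1.16. It was also higher there on days 1 and 6, with fibroblast sums of 26695 and 21980 on day 1 and 30892 and 17783 on day 6. On day 3, where it was lower, they were 26990 and 21684. The median differences of days 1, 3 and 6 were 0.058, -0.13 and -0.41. Only 1 fibroblast and 2 blood marker values were at the floor of 1. Whether such cells were in the libraries, and had any part in the levels of miR-221 and miR-222, was not tested.

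The genotypes were compared to learn whether these miRNAs differed between them. By the methods of the study only Trim71-/- cells received 4-OHT. Effects of the deletion, of 4-OHT and of Cre activity thus cannot be told apart. None of the 3 differed past the thresholds used in the study (a 1.5-fold change together with p under 0.05 before adjustment), and for none was the mean change larger than the spread between the days. miR-221-5p and miR-222-3p were higher in Trim71-/- cells on 4 of 5 days each, and miR-221-3p on 3 of 5. In the paired fit across all miRNAs 0.845% of the 592 passed the thresholds as higher and 4.56% as lower, and 0% reached an adjusted p under 0.05, so that a count of 0 among 3 members does not set them apart. Before adjustment limma gave 32 of the 592 miRNAs a p under 0.05, and the smallest adjusted p was 0.607.

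The values have a structure that bears on every comparison. After the batch correction the 2 libraries of a day summed to the same value on each of the 5 days, 211 for miR-221-3p, 96.0 for miR-221-5p and 18.2 for miR-222-3p. A high value in one library of a day is thus matched by an equally low value in its partner, and which of the 2 had moved cannot be told apart. Each day therefore gives 1 difference. The day 2 library held 106 for miR-221-3p, 40.6 for miR-221-5p and 7.80 for miR-222-3p, which are the means of the other Trim71fl/fl libraries, and it was left out of the tests. None of the values of the 3 miRNAs was at the floor of 1, the lowest value the authors allowed.

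miR-221-3p, the arm that carries the seed of the family at the higher level, had values in Trim71-/- and Trim71fl/fl cells of 156 and 55.7 on day 1, 94.0 and 117 on day 3, 150.01 and 61.4 on day 4, 15.2 and 196 on day 5, and 112 and 99.6 on day 6. The genotypes overlapped widely, with the Trim71-/- library high on days 1 and 4, close to its partner on days 3 and 6, and the lowest of all 10 libraries on day 5. The means were 105 ± 56.7 and 106 ± 56.7 (SD, n = 5 each), a ratio of 0.993. On the log2(value + 1) scale the same-day differences were 1.47, -0.32, 1.27, -3.61 and 0.17, and the fitted log2 fold change was -0.20 (SE 0.77, 95% confidence interval -2.10 to 1.69, limma, adjusted p = 0.914). The exact two-sided test, which swaps genotypes within days, gave p = 0.875, where the smallest possible value is 0.0625. The interval of this arm reaches beyond a 2-fold change in either direction, so that equal levels were not shown either. Day 5 decided the direction. Without it the log2 fold change was 0.65 (limma, adjusted p = 0.717), higher in Trim71-/- cells.

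miR-221-5p, the arm of Mir221 that is usually the less abundant, had values in Trim71-/- and Trim71fl/fl cells of 52.2 and 43.8 on day 1, 52.3 and 43.7 on day 3, 42.8 and 53.2 on day 4, 75.2 and 20.8 on day 5, and 54.5 and 41.5 on day 6. The Trim71-/- library was higher on every day but day 4, and the genotypes overlapped through the pair of that day. The means were 55.4 ± 11.95 and 40.6 ± 11.95 (SD, n = 5 each), a ratio of 1.36. The same-day log2 differences were 0.25, 0.25, -0.31, 1.81 and 0.38, with a fitted log2 fold change of 0.48 (SE 0.36, 95% confidence interval -0.40 to 1.36, limma, adjusted p = 0.645) and an exact permutation p of 0.25. Again 1 day held most of the change, and without day 5 the log2 fold change was 0.14 (limma, adjusted p = 0.887).

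miR-222-3p, which shares the seed of miR-221-3p, had values in Trim71-/- and Trim71fl/fl cells of 10.2 and 7.96 on day 1, 12.9 and 5.27 on day 3, 11.01 and 7.20 on day 4, 5.32 and 12.9 on day 5, and 12.5 and 5.68 on day 6. On 4 days the Trim71-/- library was higher, and day 5 reversed this, so that the genotypes overlapped through that pair alone. The means were 10.4 ± 3.05 and 7.80 ± 3.05 (SD, n = 5 each), a ratio of 1.33. The same-day log2 differences were 0.33, 1.15, 0.55, -1.13 and 1.02, with a fitted log2 fold change of 0.38 (SE 0.40, 95% confidence interval -0.59 to 1.35, limma, adjusted p = 0.699) and an exact permutation p of 0.375. The log2 fold change was 0.19 without day 3 and 0.22 without day 6. Without day 5 it was 0.76 (limma, adjusted p = 0.717), with an unadjusted p of 0.0416 by limma. The authors' minimum of 10 kept this miRNA only through its Trim71-/- mean, which favours a higher value in that genotype, so that neither value is taken as support for a rise. On a linear scale the mean difference was 2.61 normalized counts, and on the log scale a value this low leans on the pseudocount of 1. The log2 fold change was 0.42 with a pseudocount of 0.1 and 0.20 with 10.

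**Figure D2:**
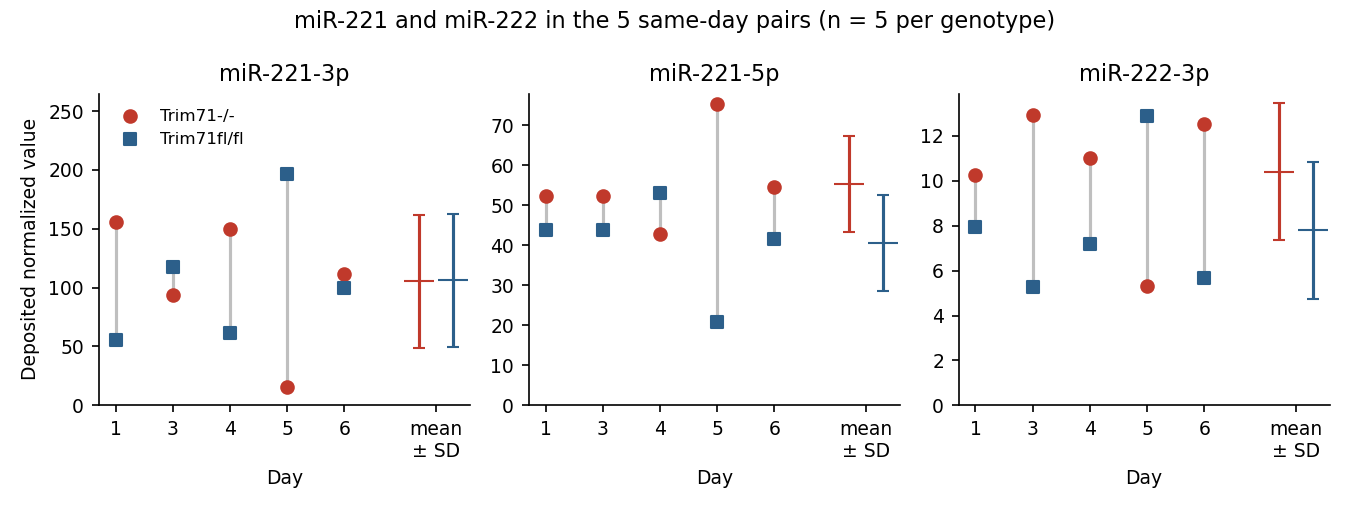
Deposited normalized values of the 3 miRNAs by day, with the Trim71-/- (circles) and Trim71fl/fl (squares) library of each day joined by a line, and the mean ± SD of each genotype (n = 5) at the right of each panel. On day 5 the order of the genotypes is reversed for miR-222-3p and widest for both arms of miR-221, in opposite directions.

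The differences were read against those of all miRNAs on the same day, since the spread over miRNAs differed between days, with an SD of the same-day log2 differences between 0.793 on day 3 and 2.17 on day 6. miR-221-3p had a difference on day 5 that was large beside this spread, for 6.25% of the 592 miRNAs had a difference of larger size on that day. Its difference on day 1, in the other direction, lay above those of 96.6% of the miRNAs, and that of day 4 above 89.5%. The day 5 difference of miR-221-5p was above 87.7% and that of miR-222-3p above 15.5% of them. miR-222-3p reached its highest place on day 3, above 93.6% of the miRNAs. The median difference of all miRNAs was within 0.022 of 0 on each day, while the summed values of the day 5 libraries stood farthest apart, at 5551715 in Trim71-/- and 2742673 in Trim71fl/fl cells.

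**Figure D3:**
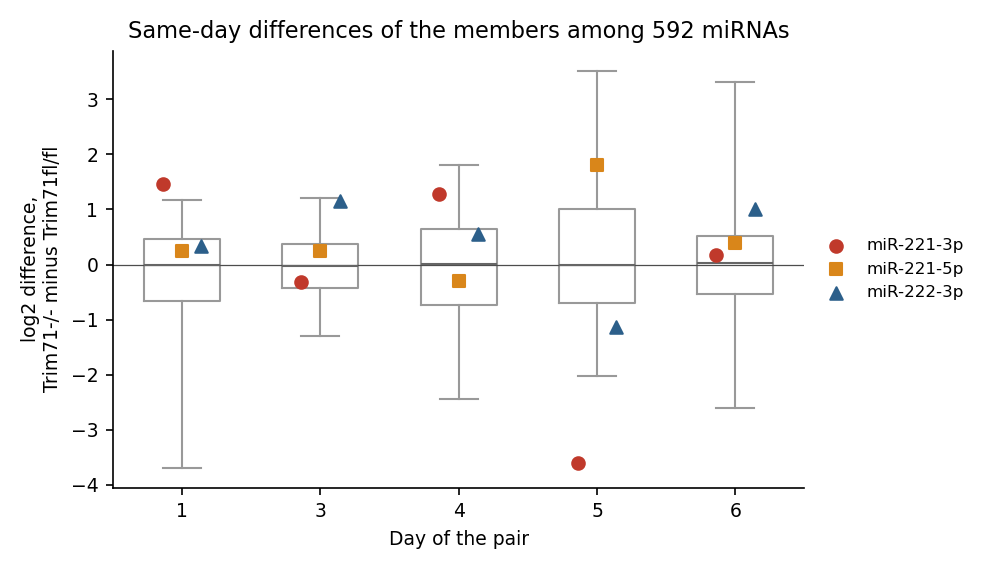
Same-day log2 difference, Trim71-/- minus Trim71fl/fl, of the 3 miRNAs (coloured symbols) over the distribution of all 592 miRNAs on that day (box, quartiles with the median; whiskers, 5th to 95th percentile). miR-221-3p lies below the lower whisker on day 5 at -3.61 and above the upper whisker on day 1 at 1.47.

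The 2 arms of miR-221 come from the same hairpin, and a factor that scales a whole library cancels from their ratio, whereas a batch correction made for each miRNA does not. The 3p arm made up 74.9%, 64.3%, 77.8%, 16.8% and 67.3% of both arms in the Trim71-/- libraries of days 1, 3, 4, 5 and 6, and 56.0%, 72.9%, 53.6%, 90.4% and 70.6% in their Trim71fl/fl partners. The 3p arm was thus the larger in 9 of 10 libraries, and in the Trim71-/- library of day 5 the 5p arm was. Between the genotypes the log2 ratio of 5p to 3p differed by 0.68 on average (SD 2.80, n = 5 pairs, higher on 3 of 5 days in Trim71-/- cells, exact two-sided permutation p = 0.8125), and by -0.50 without day 5. On the day scale the ratio differed by -1.22, 0.57, -1.58, 5.42 and 0.22, so that the arms moved against each other by the largest amount on day 5.

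The same contrast was taken for all 179 hairpins with both arms in the table. Their median 3p share was 44.8%, and that of miR-221, 68.8% from the means over the 10 libraries, was higher than in 60.9% of the hairpins. Taking for each hairpin the day on which its arms were farthest apart, 21 of the 179 had a contrast of larger size than miR-221, beside a median of 2.24. Within single days, 63, 63, 46, 5 and 149 hairpins had a larger contrast than miR-221 on days 1, 3, 4, 5 and 6. The arms of miR-221 changed in the same direction on 2 of 5 days, and 64 of the 179 hairpins (35.8%) likewise had their arms apart on 3 or more days.

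**Figure D4:**
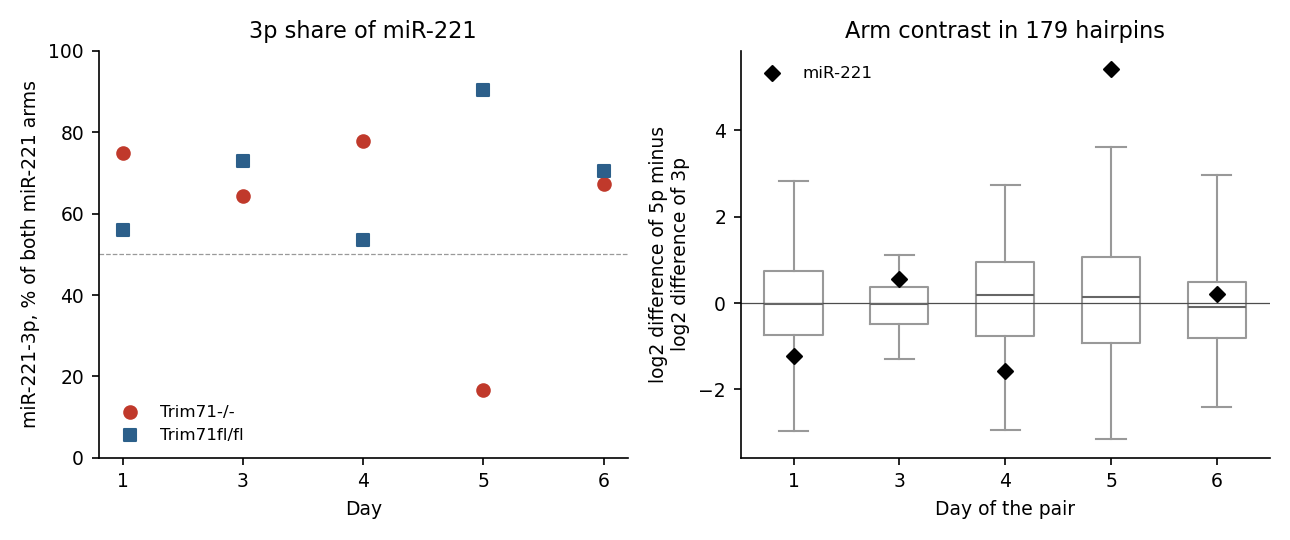
Left, miR-221-3p as a percentage of both miR-221 arms in the Trim71-/- (circles) and Trim71fl/fl (squares) library of each day, with 50% dashed. Right, the same-day log2 difference of the 5p arm minus that of the 3p arm for miR-221 (diamonds) over all 179 hairpins with both arms listed (box, quartiles with the median; whiskers, 5th to 95th percentile). The share of 16.8% in Trim71-/- cells on day 5 and the matching contrast of 5.42 stand out from the other days.

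miR-221-3p and miR-222-3p share a seed and lie on neighbouring hairpins, which are known to be cut from a common primary transcript. Their same-day differences had the same direction on 4 of 5 days, apart on day 3 alone, and both were lower in the Trim71-/- library on day 5. Among 129 same-arm pairs of listed miRNAs from neighbouring hairpins within 10 kb on 1 strand, 43 had the same direction on 4 days and 18 on all 5, with a median of 3 days. The root mean square gap between their differences was 1.47 log2 units, close to the median of 1.42 over those pairs. miR-221-3p exceeded miR-222-3p by a factor of 9.58 ± 4.98 in Trim71-/- and 14.1 ± 6.36 in Trim71fl/fl cells (SD, n = 5 each). The log2 ratio was lower in Trim71-/- cells by 0.59 on average (a difference of -0.59, SD 1.51, lower on 3 of 5 days, exact two-sided permutation p = 0.4375). The difference was -0.11 without day 5 and -1.02 without day 1. With the ratio between 2.85 and 22.3 over the 10 libraries, this difference was within the spread of the days. The minimum of 10 that kept miR-222-3p through its Trim71-/- mean also favours a lower ratio in that genotype.

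Summed over the 3 miRNAs, the cluster amounted to 171 ± 47.9 in Trim71-/- and 154 ± 47.9 in Trim71fl/fl cells (SD, n = 5 each). The log2 sum differed by 0.14 (SD 0.89, higher on 3 of 5 days, exact two-sided permutation p = 0.8125). Single pairs set its direction, with -0.075 without day 1, -0.005 without day 4 and 0.49 without day 5. After division by the library totals the difference was -0.12. That division moved the median of all miRNAs to -0.24, and relative to this median the log2 fold changes of miR-221-3p, miR-221-5p and miR-222-3p were -0.23, 0.45 and 0.38. The clones were also taken alone. In clone 1, with 3 pairs, the log2 fold changes were -0.66, 0.81 and 0.07, and in clone E3, with 2 pairs, 0.48, -0.027 and 0.85, in the same order. Whether the clones differ was not tested.

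**Figure D5:**
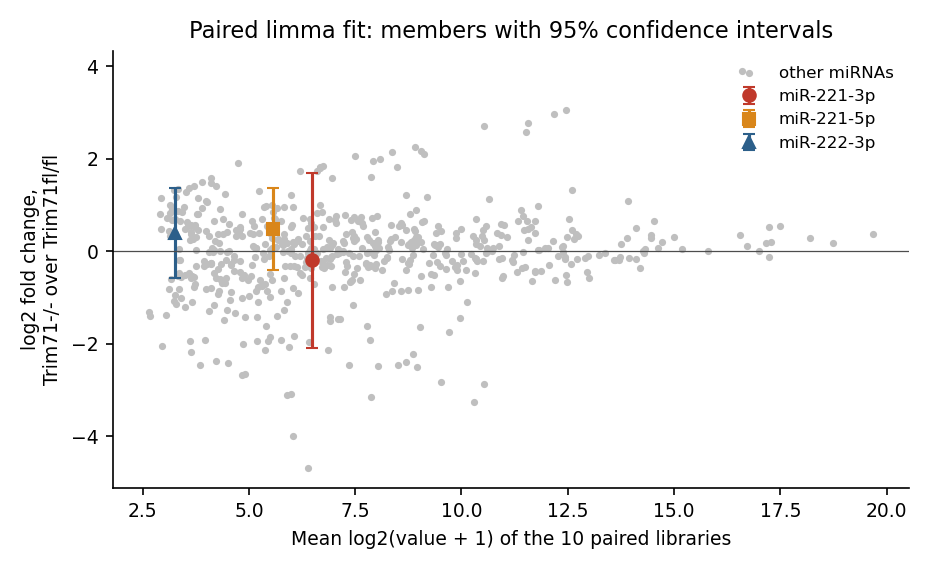
Fitted log2 fold change, Trim71-/- over Trim71fl/fl, against the mean log2(value + 1) of the 10 paired libraries for all 592 miRNAs (grey), with the 3 miRNAs of miR-221 and miR-222 in colour and their 95% confidence intervals from limma. The 3 intervals include 0, and that of miR-221-3p is the widest, from -2.10 to 1.69.

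The other miRNAs whose same-day differences came closest to those of each member were found by the root mean square distance over the 5 days, which is given as a description. For miR-221-3p the nearest were miR-6540-5p (0.874), miR-466l-3p (0.984) and miR-367-3p (0.998), beside a median distance of 2.21 to all others. miR-367-3p belongs to the miR-302 cluster, which is active in pluripotent cells. For miR-221-5p they were miR-1968-5p (0.233), miR-193b-3p (0.245) and miR-378d (0.25), beside a median of 1.28. For miR-222-3p they were miR-18a-3p (0.370), from the hairpin next to miR-17, miR-449a-5p (0.416) and miR-532-3p (0.448), beside a median of 1.38. Each of the 9 had the direction of its member on day 5, which such a distance favours. The 3 nearest to miR-221-3p had -3.02, -2.64 and -1.93 on that day.

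A pair of lists set the members beside miRNAs of the same role and chromosome. The 14 miRNAs of a list that promotes the short cell cycle of mES cells, from the miR-290, miR-302, miR-17 and related clusters, had a median log2 fold change of -0.23, with 4 higher and 10 lower in Trim71-/- cells. None of the 14 passed the thresholds in either direction, beside 0.845% of all miRNAs as higher and 4.56% as lower, and the lowest was miR-302d-3p at -0.66 (SE 0.30, limma, adjusted p = 0.607). The 66 other listed miRNAs that RefSeq places on the X chromosome alone had a median of 0.25, with 43 higher and 23 lower, of which 1 passed as higher and 2 as lower, beside 0.845% and 4.56% of all miRNAs. Their summed value went the other way, lower in the Trim71-/- library on days 1, 3, 5 and 6 and higher on day 4, between 51679 and 67043 in Trim71-/- and between 51137 and 66529 in Trim71fl/fl libraries. Over all 592 miRNAs the median was 0.03, with 303 higher and 289 lower. The members, with -0.20, 0.48 and 0.38, lay within the range of the X-linked miRNAs, from -1.50 to 2.16.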

How the data were processed

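Small RNA libraries of Trim71-/- and Trim71fl/fl mES cells were analysed from the deposited table. According to the study's methods and the submitters' processing notes, reads were converted with CASAVA 1.8, trimmed with FLICKR and aligned with Bowtie2 2.2.1 (mature miRNAs of miRBase, mm10). The authors normalized the counts with DESeq2 and corrected them for batch in Partek 6.6, set values under 1 to 1 and kept miRNAs with a larger group mean of at least 10. The deposited values are thus a signal, normalized and no longer raw counts. The read depth is unknown, and precision comes from the 5 pairs alone. A further 9677 rows without a name were left out.

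The genotypes were compared with limma 3.58.1 in R 4.3.3 on log2(value + 1) of all 592 miRNAs, with genotype and day as factors and Benjamini-Hochberg adjustment, in the 10 libraries of the 5 days that have both genotypes. The labels pair the libraries by day and clone. Once group means were removed, the libraries of a day correlated across miRNAs at -0.65 to -0.41, a mirror image that the equal same-day sums impose. For single values, genotypes were swapped within days in an exact two-sided permutation test (32 sign patterns). The fit was checked on simulated data, in which same-day libraries shared a shift and lacked the mirror image of the real pairs. That check therefore does not cover this feature.

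The members, lists and tests were chosen with earlier results of these data known. The miRNAs named are the members, miRNAs with a member's seed, the 3 nearest to each member by distance, and the lowest or leading miRNAs of a list, which were chosen after their values were seen. Sequences and positions are from RefSeq (GRCm38.p6) and GENCODE M21. The alternatives were fits without the block, with all 11 libraries, with clone as the block, without each pair and in each clone, other pseudocounts (0.1 and 10), untransformed values, 2 other scalings, a minimum mean of 100 and limma with trend. Plots were drawn with Python 3.11.15 and matplotlib 3.10.9.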

Additional observations from a re-analysis of the deposited data

Results flagged for a closer look

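The share of miR-221-3p in both miR-221 arms was 16.8% in the Trim71-/- library of day 5, a sample far from the other 4 of its genotype, which lay between 64.3% and 77.8%. In the Trim71fl/fl libraries, between 53.6% and 90.4%, no sample stood apart in this way. By chance about 1 in 20 such groups would be marked, and 20 groups were looked at. In the same library miR-221-3p had a value of 15.2 and miR-221-5p one of 75.2. The same-day sums of each arm are equal over days, so that the value of this library cannot be told apart from that of its partner.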

How the results depend on the processing

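None of the 3 miRNAs passed the thresholds under the alternatives in which it was fitted, except miR-222-3p at 0.76 without the pair of day 5, a miRNA that the authors' minimum kept only through the genotype in which it was higher. The minimum mean of 100 left miR-221-3p alone of the 3. For the pairs left out in turn, the log2 fold change ranged from -0.62 to 0.65 for miR-221-3p, from 0.14 to 0.67 for miR-221-5p, from 0.19 to 0.76 for miR-222-3p and from -0.075 to 0.49 for their sum. The difference of the arm ratio ranged from -0.50 to 1.25, and that of the ratio of miR-221-3p to miR-222-3p from -1.02 to -0.11. In clone E3 alone the direction turned for miR-221-3p (0.48), miR-221-5p (-0.027) and the arm ratio (-0.50), and after division by library totals for the sum (-0.12). The cause was not tested, apart from there being fewer pairs in a clone.

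The number of miRNAs past the thresholds moved more than the members did. Without the replicate block of same-day pairs it was 42 higher and 59 lower, in place of 5 and 27, and with all 11 libraries 45 and 71. With clone as the block it was 36 and 57. These fits count the 2 libraries of a day as independent, although their same-day sums are fixed. Their p-values therefore come out too low, and their larger counts are no support for more changes. Clone 1 alone gave 14 and 45, and clone E3 alone gave 8 higher. It was 8 higher with a pseudocount of 10, 9 higher with untransformed values, 2 higher and 48 lower after division by library totals, and 10 lower among miRNAs with a mean of at least 100. For the pairs left out in turn it ranged from 4 to 23 higher and from 11 to 44 lower. An adjusted p under 0.05, reached by 0 miRNAs in the paired fit, was reached by 9 without the block, 36 with all 11 libraries, 1 in clone 1 alone and 1 with untransformed values, none of them a member. For the members, the added library of day 2 held the means of the other Trim71fl/fl libraries. Such a library narrows the spread without adding an independent value. How far this raised the count of 36 was not tested. Without the block miR-221-3p, miR-221-5p and miR-222-3p had unadjusted limma p-values of 0.756, 0.094 and 0.206. These are too low for the reason given above, and no call on the members changed. Depth could not be judged, since the values hold no raw counts.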
